A study of Mus musculus with 8 samples.

Results

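Tetraspanins are membrane proteins with several membrane-spanning segments, and 7 of their genes, Cd9, Cd81, Cd63, Cd151, Cd82, Cd53 and Cd37, were followed through chromatin accessibility in mouse bone marrow progenitors. Of the 61196 accessible regions in the deposited tables, 35 had one of these genes as their nearest protein-coding gene within 50 kb, and these 35 were the members. Cd9 had 13 of them, Cd82 had 7, Cd81 had 6, Cd63 had 4, Cd53 had 3, and Cd37 and Cd151 had 1 each. The family was chosen by the counts of GMP-MoP and cMoP at a region near the 3′ end of Cd9, which stood out between those groups, so that comparison is described without a test. The other comparisons share GMP-MoP or cMoP libraries with it, except proNeu2 against proNeu1. A link to the nearest gene is a position only, and what a region controls was not measured.

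The assay was ATAC-seq, in which the Tn5 transposase cuts open chromatin and the reads at a region measure its accessibility. The study set GMP-MoP beside proNeu2, proNeu1 and cMoP, and its title concerns a route from proNeu1 to GMP-MoP. Each group was a sorted population of bone marrow progenitors with 2 libraries, made from 5000 sorted cells per tube with the Illumina Tagment DNA enzyme. The labels name no mutation and no treatment, and the sources used here give no sort gates, age or strain. The libraries are called biological replicates without naming source animals, and each p-value therefore reflects only how far these libraries spread.

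Tetraspanins gather partner proteins such as integrins, immunoglobulin-family proteins and ADAM proteases into small membrane domains, and they are abundant on extracellular vesicles. CD9 and CD81 are close relatives at the cell surface, and CD9 is prominent on platelets. CD63 sits mainly in late endosomes, lysosomes and related granules, CD151 binds laminin-binding integrins, CD82 was described as a metastasis suppressor, and CD37 and CD53 are largely restricted to leukocytes.

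Promoter sequences are shown for the 5 genes whose start sites carry the main contrasts below: Cd9, Cd81, Cd63 and Cd37, which were more accessible in the proNeu groups than in cMoP, and Cd53, which was not. Each runs from 250 bases before to 50 bases after a gene start listed by RefSeq (GRCm38.p6). Capitals mark 6-letter matches on either strand, GGGCGG (a core that SP-family factors bind) in Cd9 and Cd81, and GAGGAA (a core that PU.1 and other ETS factors bind, read TTCCTC on the other strand) in Cd63, Cd37 and Cd53. The Cd9 promoter lies at chr6:125494711-125495010 on the minus strand, Cd81 at chr7:143052500-143052799 on the plus strand, Cd63 at chr10:128909095-128909394 on the plus strand, Cd37 at chr7:45238790-45239089 on the minus strand and Cd53 at chr3:106790100-106790399 on the minus strand.
Cd9: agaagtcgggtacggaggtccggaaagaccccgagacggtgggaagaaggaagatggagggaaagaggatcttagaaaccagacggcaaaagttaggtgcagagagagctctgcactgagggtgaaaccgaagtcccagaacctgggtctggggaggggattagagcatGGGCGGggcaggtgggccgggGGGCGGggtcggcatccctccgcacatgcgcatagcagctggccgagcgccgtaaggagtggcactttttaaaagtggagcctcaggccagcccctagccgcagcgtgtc
Cd81: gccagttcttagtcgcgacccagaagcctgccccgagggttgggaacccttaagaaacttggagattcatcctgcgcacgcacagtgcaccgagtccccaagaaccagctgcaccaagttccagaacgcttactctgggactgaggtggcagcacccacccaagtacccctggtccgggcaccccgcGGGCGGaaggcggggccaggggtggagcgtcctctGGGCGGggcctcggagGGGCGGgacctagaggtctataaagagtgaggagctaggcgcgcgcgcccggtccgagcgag
Cd63: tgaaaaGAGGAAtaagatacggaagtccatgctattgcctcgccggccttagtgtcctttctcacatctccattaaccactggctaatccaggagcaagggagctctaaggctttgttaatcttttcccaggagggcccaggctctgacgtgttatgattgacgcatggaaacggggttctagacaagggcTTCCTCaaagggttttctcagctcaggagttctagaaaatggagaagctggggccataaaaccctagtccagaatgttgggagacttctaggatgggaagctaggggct
Cd37: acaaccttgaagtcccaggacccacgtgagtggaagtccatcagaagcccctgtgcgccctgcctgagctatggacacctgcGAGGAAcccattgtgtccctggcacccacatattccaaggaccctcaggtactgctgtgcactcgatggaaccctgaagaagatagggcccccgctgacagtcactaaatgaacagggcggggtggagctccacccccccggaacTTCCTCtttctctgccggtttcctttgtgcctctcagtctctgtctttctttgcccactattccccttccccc
Cd53: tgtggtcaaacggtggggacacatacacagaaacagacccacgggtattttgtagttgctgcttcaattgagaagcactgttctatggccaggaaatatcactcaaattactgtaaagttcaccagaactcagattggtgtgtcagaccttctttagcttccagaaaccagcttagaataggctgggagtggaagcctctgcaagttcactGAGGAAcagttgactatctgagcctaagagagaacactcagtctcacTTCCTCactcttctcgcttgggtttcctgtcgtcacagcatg

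GGGCGG, on either strand, was in 35.7% of the 32851 promoters in the table, and GAGGAA was in 28.3%. Cd9 held GGGCGG at 81 and 60 bases before the start, counted to the first base of the match. Cd81 held it at 63, 28 and 12 bases before the start, followed by TATAAA 7 bases into the transcript, and TATAAA was in 13.6% of all promoters. Cd63 held GAGGAA at 244 and 59 bases before the start, Cd37 at 168 and 23 bases before it, and Cd53 at 39 bases before and 9 bases after it. The start-site region measured at Cd63 begins at chr10:128909326, just before the start, so both Cd63 matches lie outside it. The windows of the other genes shown lie inside their start-site regions. Cd37 held GGGCGG as well, 53 bases before the start, and Cd53 held TGTGGT (a RUNX core) 250 bases before and CCAAT (an NF-Y core) 117 bases before. C/EBP letters (TTGCNNAA), which 10.8% of all promoters held, were not in these 5 windows. Cd82, whose start site was also higher in both proNeu groups than in cMoP, is not among the 5. Of its 4 listed promoters, promoter 1 held these letters 230 bases before its start and promoter 3 held them 113 bases before. A match is a description of letters, not a measured site.

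The 8 libraries held between 1388525 and 1907810 counts in the regions. Values are CPM, counts scaled to library size with TMM factors, tests are edgeR's quasi-likelihood test over all 47506 regions that passed a low-count filter, and a difference was called at a Benjamini-Hochberg adjusted p under 0.05. Of the 35 members, 31 passed the filter; the other 4 were Cd9 +21.1 kb, Cd9 +23.2 kb, Cd82 +25.3 kb and Cd82 −22.0 kb, named by distance from the start site, with plus for downstream. Neutrophil marker genes had a summed accessibility of 237 to 251 CPM in GMP-MoP, 783 to 816 CPM in proNeu2, 698 to 709 CPM in proNeu1 and 199 to 210 CPM in cMoP over 7 of 7 genes. Monocyte marker genes had 586 to 631 CPM in GMP-MoP, 454 to 476 CPM in proNeu2, 477 to 512 CPM in proNeu1 and 706 to 740 CPM in cMoP, also over 7 of 7. Primary granule genes had 266 to 313 CPM in GMP-MoP, 386 to 421 CPM in proNeu2, 310 to 371 CPM in proNeu1 and 225 to 226 CPM in cMoP. Markers of other lineages had regions too. Erythroid and megakaryocyte genes, of interest because platelets carry CD9, summed to 200 to 243 CPM in GMP-MoP, 248 to 265 CPM in proNeu2, 248 to 249 CPM in proNeu1 and 225 to 238 CPM in cMoP, over 6 of 7 genes, with Gp9 having no region. Most of this sum came from Vwf, which lies near Cd9. Its mean gene sum was 141 CPM in GMP-MoP, 144 in proNeu2, 140 in proNeu1 and 146 in cMoP. Klf1 was higher in proNeu2 than in cMoP (61.5 against 43.0 CPM) and Itga2b level (31.5 against 31.3 CPM). Pf4 (7.92 against 22.0 CPM) and Gata1 (3.81 against 8.68 CPM) were lower in proNeu2. Mast cell, basophil and eosinophil genes were at 94.4 to 94.7 CPM in GMP-MoP against 67.5 to 79.6 CPM over the other 3 groups. T and NK cell genes summed to 58.8 to 66.3 CPM in GMP-MoP, 96.2 to 98.5 CPM in proNeu2, 81.4 to 87.5 CPM in proNeu1 and 63.3 to 72.6 CPM in cMoP, and B cell genes to 60.8 to 82.1 CPM over all groups, with Cd3e and Cd79a having no region. The part of other cell types in the results below was not tested, and in bulk libraries fewer open cells and less accessibility per cell cannot be told apart.

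The start sites of Cd9, Cd81 and Cd63 were the least accessible in cMoP, and all 3 were higher in both proNeu groups. All 7 start sites were tested. In proNeu1 against cMoP, 5 rose and 0 fell, and in proNeu2 against cMoP, 5 rose and 1 fell (Cd53). Start sites in general went the same way: of 8740 tested, 36.4% rose and 6.66% fell in proNeu1 against cMoP, and 43.7% rose and 11.8% fell in proNeu2 against cMoP. Median log2 differences of the 7 were 0.65 in proNeu1 against cMoP and 1.04 in proNeu2 against cMoP, against 0.31 and 0.35 over all start sites. With loess offsets, which remove a trend with mean abundance from each library, the 7 gave 3 higher and 1 lower in proNeu1 against cMoP, and 4 higher and 1 lower in proNeu2; all start sites then gave 16.7% higher and 11.4% lower in proNeu1, and 25.6% and 18.6% in proNeu2.

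**Figure D1:**
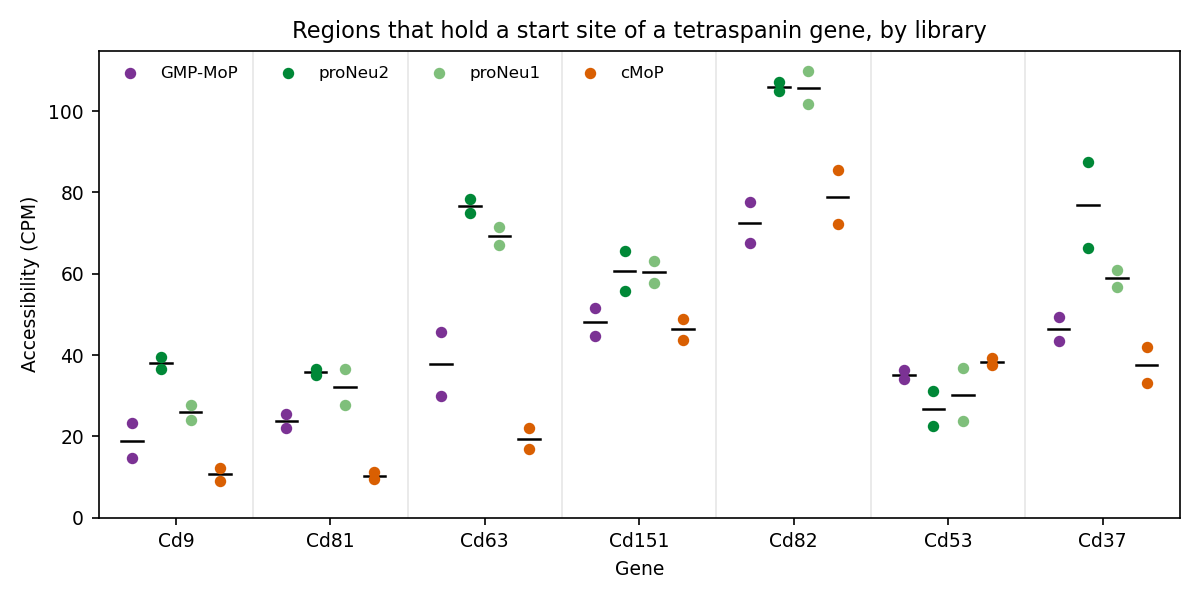
Accessibility in CPM (vertical axis) of the region that holds the start site of each gene (horizontal axis), with 1 point per library and a bar at the mean of 2, in GMP-MoP, proNeu2, proNeu1 and cMoP. The Cd63 libraries sit at 75.0 and 78.4 CPM in proNeu2 and at 16.9 and 22.0 CPM in cMoP, while the Cd151 groups lie between 43.8 and 65.7 CPM.

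The Cd9 start site (chr6:125493949-125495240) had 23.2 and 14.7 CPM in GMP-MoP, 39.5 and 36.5 CPM in proNeu2, 24.1 and 27.8 CPM in proNeu1, and 12.4 and 8.97 CPM in cMoP. The proNeu2 libraries were above all others, the cMoP libraries below all others, and no pair of groups overlapped. It was higher in proNeu2 than in cMoP (log2 fold change 1.83, SE 0.27, adjusted p = 5.79e-10 by edgeR) and in proNeu1 than in cMoP (1.28, SE 0.29, adjusted p = 0.000114), and both calls were kept under all 16 alternatives. It was lower in GMP-MoP than in proNeu2 (−1.04, SE 0.25, adjusted p = 0.000286), a call that ended without GMP-MoP replicate 2 (adjusted p = 0.0660). Against proNeu1 the GMP-MoP difference was −0.49 (SE 0.27, adjusted p = 0.184).

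A region 58.9 kb downstream of the Cd9 start, 23.9 kb beyond the gene's 3′ end (chr6:125435442-125436377), had the largest log2 fold changes of any tested member. It held 2.18 and 1.13 CPM in GMP-MoP (3 and 2 counts), 18.8 and 10.6 CPM in proNeu2 (31 and 16 counts), 12.7 and 9.50 CPM in proNeu1 (18 and 14 counts), and 1.61 and 1.06 CPM in cMoP (3 and 2 counts). Both proNeu groups were well above GMP-MoP and cMoP, which overlapped at the level of a few counts per library. It was lower in GMP-MoP than in proNeu2 (−3.16, SE 0.54, adjusted p = 3.97e-07) and than in proNeu1 (−2.74, SE 0.59, adjusted p = 0.000130). It was higher in proNeu2 than in cMoP (3.41, adjusted p = 7.77e-09) and in proNeu1 than in cMoP (2.99, adjusted p = 5.02e-06). These 4 calls were kept under every alternative, the highest adjusted p being 0.0413.

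Further Cd9 regions had the same order of groups. The region at +64.2 kb had 18.2 and 11.3 CPM in GMP-MoP, 27.4 and 27.9 CPM in proNeu2, 22.0 and 31.2 CPM in proNeu1, and 10.2 and 4.22 CPM in cMoP, with cMoP below all others. Accessibility was higher in proNeu2 and in proNeu1 than in cMoP (1.93, adjusted p = 2.97e-08, and 1.88, adjusted p = 2.26e-07). The region 11.3 kb upstream had 5.08 and 6.24 CPM in GMP-MoP, 12.8 and 11.3 CPM in proNeu2, 9.92 and 10.2 CPM in proNeu1, and 2.69 and 2.11 CPM in cMoP, and no pair of groups overlapped. It was higher than in cMoP in proNeu2 (2.29, adjusted p = 2.19e-05) and in proNeu1 (2.03, adjusted p = 0.000578). Inside the gene at +13.2 kb, GMP-MoP had 42.1 and 36.3 CPM, proNeu2 55.9 and 69.0 CPM, proNeu1 57.4 and 63.8 CPM, and cMoP 38.2 and 35.4 CPM. GMP-MoP overlapped cMoP there and lay below both proNeu groups. That region was higher than in cMoP in proNeu2 (0.76, adjusted p = 0.000194) and in proNeu1 (0.72, adjusted p = 0.000773).

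Of the GMP-MoP differences at these 3 Cd9 regions, 5 of 6 were called, and each call ended under at least 1 alternative. With loess offsets both calls at +13.2 kb ended (edgeR adjusted p 0.0919 against proNeu2 and 0.148 against proNeu1). At +64.2 kb GMP-MoP was lower than proNeu2 (−0.94, adjusted p = 0.00453) and proNeu1 (−0.89, adjusted p = 0.0148), and without GMP-MoP replicate 2 the values were 0.186 and 0.328; the proNeu1 call also ended without proNeu1 replicate 2 (0.271). At +13.2 kb it was lower than proNeu2 (−0.68, adjusted p = 0.00211) and proNeu1 (−0.64, adjusted p = 0.00808), which became 0.0555 and 0.138 without GMP-MoP replicate 2, 0.0736 without proNeu2 replicate 2 and 0.0976 without proNeu1 replicate 2. At −11.3 kb it was lower than proNeu2 (−1.06, adjusted p = 0.0343), and that call ended when any 1 of the 4 libraries compared was left out (0.0661 to 0.161).

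A smaller set of Cd9 regions went the other way. The region at +4.6 kb, in the gene body, had 7.26 and 9.64 CPM in GMP-MoP, 7.30 and 5.31 CPM in proNeu2, 7.08 and 4.75 CPM in proNeu1, and 14.5 and 10.03 CPM in cMoP, so cMoP was the highest group and did not overlap the others. It was lower in proNeu1 than in cMoP (−1.05, adjusted p = 0.0312) and in proNeu2 than in cMoP (−0.94, adjusted p = 0.0368). With loess offsets both calls ended (edgeR adjusted p 0.108 in proNeu1 and 0.170 in proNeu2). The proNeu1 call ended without cMoP replicate 1 (0.260) and without either proNeu1 replicate (0.0540 and 0.263), and the proNeu2 call without cMoP replicate 1 (0.306) and without either proNeu2 replicate (0.0782 and 0.256). The region at −15.9 kb had 33.4 and 36.8 CPM in GMP-MoP, 28.0 and 22.6 CPM in proNeu2, 32.6 and 22.4 CPM in proNeu1, and 39.2 and 37.5 CPM in cMoP, and was lower in proNeu2 than in cMoP (−0.59, adjusted p = 0.0167; 0.251 without proNeu2 replicate 2, 0.0853 and 0.0539 without cMoP replicates 1 and 2). The Cd9 region of highest mean CPM, at +68.6 kb, had 50.1 and 34.6 CPM in GMP-MoP, 52.9 and 54.4 CPM in proNeu2, 58.8 and 47.5 CPM in proNeu1, and 53.2 and 48.6 CPM in cMoP, and was not called. The neighbours at +49.1 and +72.2 kb were not called either.

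The region that led to the choice of the family lies 33.4 kb downstream of the Cd9 start, near the gene's 3′ end (chr6:125460895-125461911). It held 0 and 1 counts in GMP-MoP, 4 and 4 counts in proNeu2, 1 and 2 counts in proNeu1, and 28 and 25 counts in cMoP, or 15.1 and 13.2 CPM in cMoP. The 0 in GMP-MoP replicate 1 allows up to 2.18 CPM at that depth, taking 3 counts as the limit for counting error. The region passed the low-count filter through cMoP alone, so nothing is read from its fit in proNeu2 against proNeu1. Its neighbour at +23.2 kb, too low to test, held 0 and 0 counts in GMP-MoP, 1 and 1 in proNeu2, 0 and 0 in proNeu1, and 7 and 3 in cMoP. So within the Cd9 locus the start site and the +58.9, +64.2 and −11.3 kb regions were lowest or near 0 in cMoP, while the +33.4 kb region was near 0 in every group but cMoP.

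**Figure D2:**
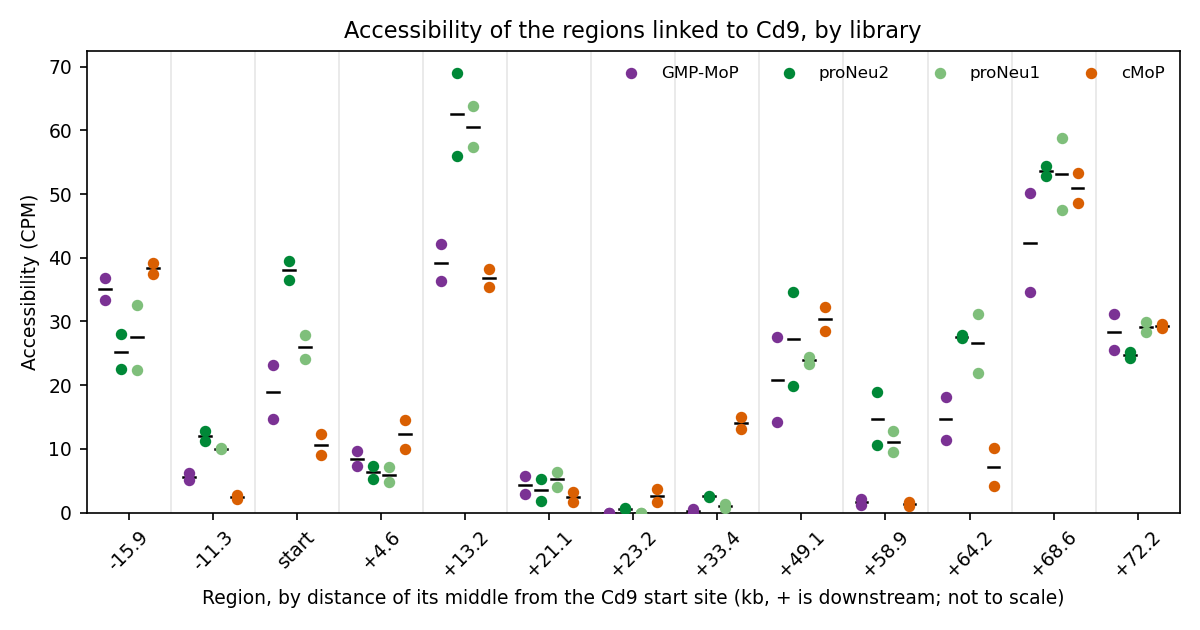
Accessibility in CPM (vertical axis) of the 13 regions linked to Cd9, ordered by distance from the start site in kb (horizontal axis, not to scale), with 1 point per library and a bar at the group mean. The +58.9 kb region reaches 18.8 CPM in proNeu2 against at most 1.61 CPM in cMoP, and the +33.4 kb region reaches 15.1 CPM in cMoP.

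Cd81 carried opposite changes within about 6 kb. Its start site (chr7:143052315-143053545) had 25.4 and 22.1 CPM in GMP-MoP, 36.5 and 35.2 CPM in proNeu2, 27.6 and 36.6 CPM in proNeu1, and 11.3 and 9.50 CPM in cMoP. Every cMoP library was below every library of the other 3 groups. The log2 fold change was 1.78 (SE 0.27, adjusted p = 2.46e-09) in proNeu2 against cMoP and 1.63 (SE 0.28, adjusted p = 2.55e-07) in proNeu1 against cMoP, both kept under all alternatives. The region 6.3 kb upstream (chr7:143045958-143046917) had 10.9 and 8.50 CPM in GMP-MoP, 4.86 and 1.99 CPM in proNeu2, 2.12 and 2.71 CPM in proNeu1, and 17.7 and 13.7 CPM in cMoP. There cMoP was highest and the proNeu groups lowest, with GMP-MoP between them and no overlap with either. That upstream region was higher in GMP-MoP than in proNeu1 (1.95, adjusted p = 0.00482) and proNeu2 (1.44, adjusted p = 0.0146), and lower in proNeu1 (−2.66, SE 0.48, adjusted p = 1.20e-06) and proNeu2 (−2.15, SE 0.43, adjusted p = 7.62e-06) than in cMoP.

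The GMP-MoP calls at −6.3 kb ended without 1 library, at 0.0583 against proNeu1 (without proNeu1 replicate 1) and at 0.0935 and 0.218 against proNeu2 (without GMP-MoP replicate 1 and without proNeu2 replicate 2). The Cd81 start was lower in GMP-MoP than in proNeu2 (−0.60, SE 0.24, adjusted p = 0.0314), which ended without GMP-MoP replicate 2 (0.212), without either proNeu2 replicate (0.132 and 0.0777) and with loess offsets (0.0825). Another Cd81 region, 9.6 kb upstream, had 5.08 and 5.67 CPM in GMP-MoP, 4.26 and 5.97 CPM in proNeu2, 4.25 and 3.39 CPM in proNeu1, and 7.53 and 12.7 CPM in cMoP, so cMoP was highest, with no overlap. It was lower in proNeu1 than in cMoP (−1.39, adjusted p = 0.0130), which ended without proNeu1 replicate 2 (0.117) or cMoP replicate 2 (0.254). The proNeu1 call also ended with loess offsets (edgeR adjusted p = 0.0603). In proNeu2 against cMoP the region was at the threshold (−0.98, adjusted p = 0.0493). That call ended in 12 of the 16 alternatives, among them the replicate block (0.0513), loess offsets (0.252) and DESeq2 (0.273). The other 3 Cd81 regions were not called.

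Cd63, the granule and lysosome tetraspanin, had the lowest p-values of the family. Its start site (chr10:128909326-128911087) had 45.7 and 30.0 CPM in GMP-MoP, 78.4 and 75.0 CPM in proNeu2, 71.5 and 67.1 CPM in proNeu1, and 22.0 and 16.9 CPM in cMoP. The proNeu libraries were the highest, the GMP-MoP libraries intermediate and the cMoP libraries the lowest, with GMP-MoP overlapping neither side. The log2 fold change was 1.98 (SE 0.20, adjusted p = 7.80e-18) in proNeu2 against cMoP, 1.83 (SE 0.21, adjusted p = 1.72e-14) in proNeu1 against cMoP, −1.05 (adjusted p = 9.07e-07) in GMP-MoP against proNeu2 and −0.90 (adjusted p = 0.000110) in GMP-MoP against proNeu1.

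The region 8.7 kb upstream of the Cd63 start (chr10:128899993-128901311), still inside the RefSeq gene interval, repeated the order. It had 13.1 and 6.80 CPM in GMP-MoP, 41.3 and 34.5 CPM in proNeu2, 28.3 and 25.1 CPM in proNeu1, and 4.84 and 5.28 CPM in cMoP. No pair of groups overlapped. Accessibility was higher in proNeu2 than in cMoP (2.89, adjusted p = 4.11e-16) and in proNeu1 than in cMoP (2.38, adjusted p = 9.54e-10), and lower in GMP-MoP than in proNeu2 (−1.98, adjusted p = 2.37e-09) and proNeu1 (−1.47, adjusted p = 0.000118). At both Cd63 regions the GMP-MoP against proNeu1 call ended without GMP-MoP replicate 2 (adjusted p = 0.0660 at the start and 0.0597 upstream), and the other 6 calls were kept under all alternatives. The region at −13.6 kb was higher in proNeu2 than in cMoP (0.89, adjusted p = 0.00702; 0.0953 without cMoP replicate 2), and the region at −6.7 kb, with 9.14 to 16.0 CPM in all groups, was not called.

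Cd151, represented by 1 region that holds both of its listed starts (chr7:141466901-141469212), had 51.6 and 44.8 CPM in GMP-MoP, 65.7 and 55.8 CPM in proNeu2, 63.0 and 57.6 CPM in proNeu1, and 48.9 and 43.8 CPM in cMoP. The proNeu libraries were above the rest and GMP-MoP overlapped cMoP, but no difference was called. In proNeu2 against cMoP the region lay at the threshold (0.39, SE 0.18, adjusted p = 0.0509) and was called in 10 of the 16 alternatives, among them the replicate block (0.0429), the fit of the 2 groups alone (0.0450) and no low-count filter (0.0164). The log2 fold change ran from 0.05 to 0.56 over the 16 alternatives, so the size of the difference depended on the processing. The adjusted p passed without either GMP-MoP replicate (0.0309 and 0.0206), either proNeu1 replicate (0.0244 and 0.0243), cMoP replicate 1 (0.0393) or proNeu2 replicate 2 (0.0292), and the highest over the alternatives was 0.835. In proNeu1 against cMoP (0.38, adjusted p = 0.0773) it passed without GMP-MoP replicate 2 (0.0402) and with no low-count filter (0.0383).

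The Cd82 start site (chr2:93461634-93463075) was the most accessible member per kb. It had 77.7 and 67.5 CPM in GMP-MoP, 107 and 105 CPM in proNeu2, 110 and 102 CPM in proNeu1, and 85.5 and 72.3 CPM in cMoP. GMP-MoP overlapped cMoP, and both proNeu groups were above them. It was higher in proNeu2 (0.43, adjusted p = 0.00887) and proNeu1 (0.42, adjusted p = 0.0135) than in cMoP, and lower in GMP-MoP than in proNeu2 (−0.55, adjusted p = 0.00175) and proNeu1 (−0.55, adjusted p = 0.00400). With loess offsets these 4 calls ended (adjusted p 0.953, 0.849, 0.259 and 0.257). Without cMoP replicate 2 the cMoP comparisons gave 0.0966 with proNeu2 and 0.140 with proNeu1; without proNeu1 replicate 1, proNeu1 against cMoP gave 0.0742 and GMP-MoP against proNeu1 gave 0.0553; and without GMP-MoP replicate 2 the last gave 0.0894.

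Other Cd82 regions went opposite ways. The region 8.0 kb upstream had 18.2 and 21.0 CPM in GMP-MoP, 35.3 and 31.2 CPM in proNeu2, 28.3 and 29.2 CPM in proNeu1, and 16.7 and 11.6 CPM in cMoP, with no overlap between groups. This upstream region was higher in proNeu2 (1.23, adjusted p = 1.28e-05) and proNeu1 (1.02, adjusted p = 0.000840) than in cMoP and lower in GMP-MoP than in proNeu2 (−0.75, adjusted p = 0.00985; 0.0548 without GMP-MoP replicate 1 and 0.101 without proNeu2 replicate 1). The region at +2.3 kb, in the gene body and counted from a listed start farther into the gene than the start-site region, had 7.99 and 14.2 CPM in GMP-MoP, 4.86 and 7.30 CPM in proNeu2, 4.25 and 4.07 CPM in proNeu1, and 16.1 and 15.8 CPM in cMoP. The cMoP libraries were highest and proNeu1 lowest. It was lower in proNeu1 (−1.92, adjusted p = 6.34e-05) and proNeu2 (−1.39, adjusted p = 0.000941; 0.0591 without proNeu2 replicate 1) than in cMoP. In the same place accessibility was higher in GMP-MoP than in proNeu1 (1.44, adjusted p = 0.0148), which ended without GMP-MoP replicate 2 (0.382) or either proNeu1 replicate (0.0753 and 0.0973).

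**Figure D3:**
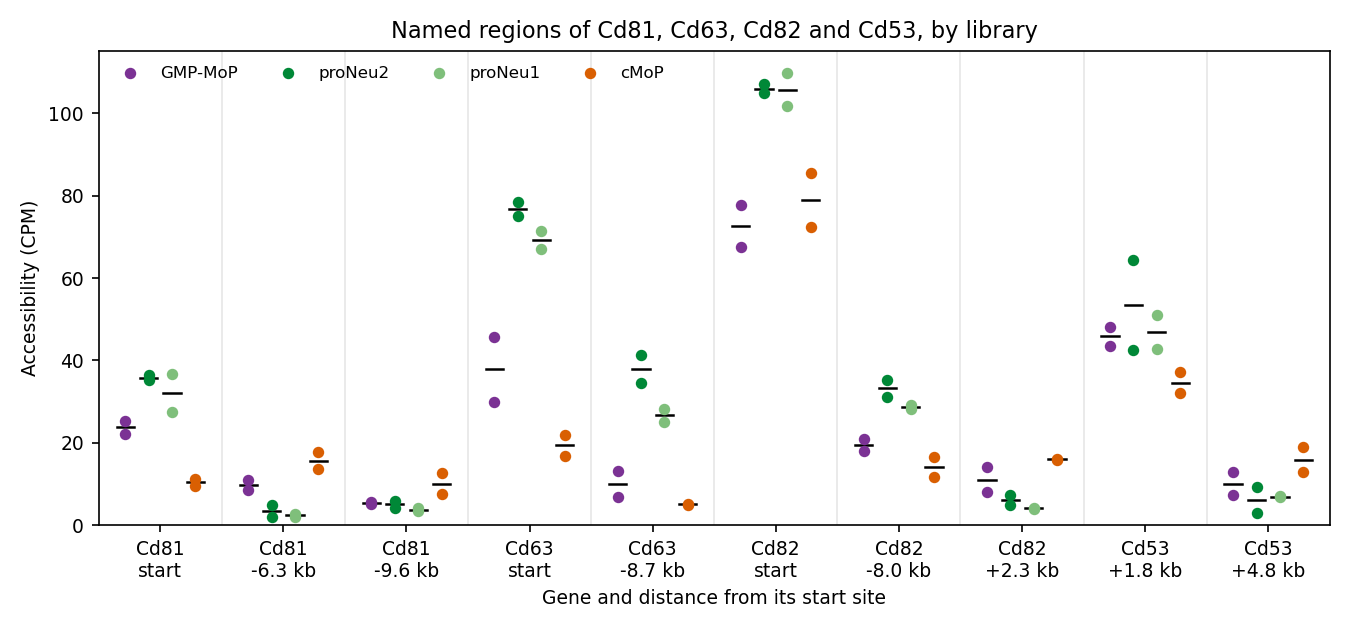
Accessibility in CPM (vertical axis) of named regions of Cd81, Cd63, Cd82 and Cd53 (horizontal axis, gene and distance from the start site), with 1 point per library and a bar at the group mean. At Cd81 the start site is lowest in cMoP (9.50 and 11.3 CPM) and the region at −6.3 kb is highest there (13.7 and 17.7 CPM).

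The leukocyte tetraspanins Cd53 and Cd37 differed from each other. The Cd53 start site (chr3:106789709-106790687) had 36.3 and 34.0 CPM in GMP-MoP, 22.5 and 31.2 CPM in proNeu2, 36.8 and 23.7 CPM in proNeu1, and 39.2 and 37.5 CPM in cMoP. The proNeu libraries spread widely, and cMoP lay above them. It was the start site that fell in proNeu2 against cMoP (−0.52, SE 0.22, adjusted p = 0.0355), a call that ended without 6 of the 8 libraries (0.0509 to 0.502) and with proNeu2 taken as 1 sample (0.109). At +1.8 kb, proNeu2 had 42.6 and 64.4 CPM against 37.1 and 32.2 CPM in cMoP (0.62, adjusted p = 0.00435; 0.253 without proNeu2 replicate 2), with GMP-MoP at 43.6 and 48.2 CPM and proNeu1 at 51.0 and 42.7 CPM. The call at +1.8 kb also ended with loess offsets (edgeR adjusted p = 0.162). At +4.8 kb, values were 7.26 and 13.0 CPM in GMP-MoP, 3.04 and 9.29 CPM in proNeu2, 7.08 and 6.78 CPM in proNeu1, and 12.9 and 19.0 CPM in cMoP. That region was lower than in cMoP in proNeu2 (−1.39, adjusted p = 0.00104; 0.188 without proNeu2 replicate 1 and 0.0618 without cMoP replicate 2) and in proNeu1 (−1.20, adjusted p = 0.00621; 0.0589 without proNeu1 replicate 2 and 0.151 without cMoP replicate 2).

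The single Cd37 region (chr7:45237707-45239824, over the start site) had 43.6 and 49.3 CPM in GMP-MoP, 87.6 and 66.4 CPM in proNeu2, 56.7 and 61.0 CPM in proNeu1, and 41.9 and 33.3 CPM in cMoP. The groups did not overlap, with proNeu2 highest and cMoP lowest. It was higher in proNeu2 than in cMoP (1.04, SE 0.18, adjusted p = 1.09e-07) under every alternative. The region was also higher in proNeu1 than in cMoP (0.65, adjusted p = 0.00274; 0.133 with loess offsets and 0.0619 without cMoP replicate 2), and lower in GMP-MoP than in proNeu2 (−0.73, adjusted p = 0.000374; 0.0779 without proNeu2 replicate 1).

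Over all tested members other than the +33.4 kb region of Cd9, 13 of 30 rose and 7 fell in proNeu2 against cMoP; over all regions 25.2% rose and 27.4% fell, 52.6% in all. In proNeu1 against cMoP 11 rose and 5 fell, with 20.6% and 21.9% of all regions and 42.4% in either direction. In GMP-MoP against proNeu2 1 rose, the Cd81 region at −6.3 kb, and 11 fell, with 20% and 19.2% of all regions and 39.2% in either direction. In GMP-MoP against proNeu1 2 rose and 6 fell, with 11.6% and 12.5% of all regions and 24.1% in either direction. The members' median log2 fold changes were 0.38 in proNeu2 against cMoP, 0.38 in proNeu1 against cMoP, −0.36 in GMP-MoP against proNeu2 and −0.30 in GMP-MoP against proNeu1, against −0.02, 0.02, 0.04 and 0.01 over all regions. DESeq2 called 11 of these members in proNeu2 against cMoP where it called 30.5% of all regions, 9 in proNeu1 against cMoP (19.5% of all), 6 in GMP-MoP against proNeu2 (15% of all) and 3 in GMP-MoP against proNeu1 (4.49% of all). Cd9 +58.9 kb, the Cd63 start site and Cd63 −8.7 kb were called by both tools in all 4 comparisons, and the start sites of Cd9 and Cd81, Cd81 −6.3 kb and Cd9 −11.3 and +64.2 kb in both comparisons with cMoP. The 9 calls DESeq2 did not make in proNeu2 against cMoP were the 3 of Cd53, Cd81 −9.6 kb, Cd63 −13.6 kb, the Cd82 start and +2.3 kb, and Cd9 +4.6 and −15.9 kb. The total share called among members was near the background in the GMP-MoP comparisons. Scaling by library totals in place of TMM gave 4 higher and 9 lower in GMP-MoP against proNeu2, and loess offsets gave 3 higher and 8 lower.

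In proNeu2 against proNeu1, edgeR called 0 of 30 members, with the +33.4 kb region of Cd9 left out, and DESeq2 also called 0. Over all regions edgeR called 0.0758% and DESeq2 0.0021%. At an unadjusted edgeR p under 0.05 were 4448 of all 47506 regions and 3 of these 30 members. Those 3 were the Cd9 start site (0.55, SE 0.23), the Cd37 start site (0.39, SE 0.17) and the Cd63 region at −8.7 kb (0.51, SE 0.23), each with both proNeu2 libraries above both proNeu1 libraries, and with adjusted p of 0.430, 0.447 and 0.476.

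**Figure D4:**
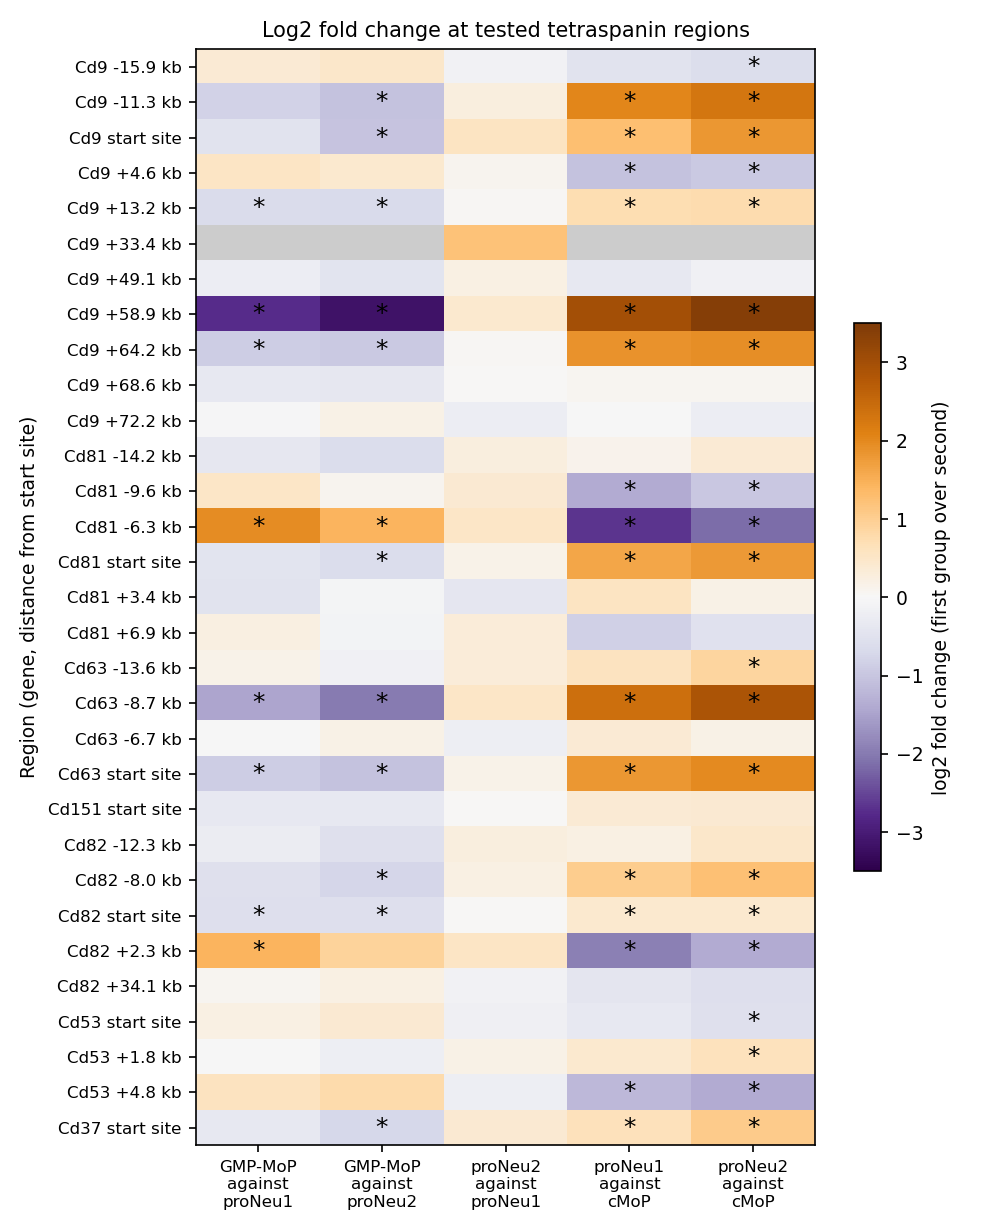
Log2 fold change (colour) of the 31 tested members (rows, ordered by gene and position) in 5 comparisons (columns, first group over second), with a star at an edgeR adjusted p under 0.05 and grey where the Cd9 +33.4 kb region, which led to the choice of the family, was not tested; its 1 coloured cell rests on 1 to 4 counts per library. The +58.9 kb region of Cd9 spans −3.16 in GMP-MoP against proNeu2 to 3.41 in proNeu2 against cMoP, and the column of proNeu2 against proNeu1 has no star.

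Between GMP-MoP and cMoP, where values are a description, GMP-MoP had more accessibility at the start sites of Cd9 (23.2 and 14.7 CPM against 12.4 and 8.97 CPM in cMoP), Cd81 (25.4 and 22.1 CPM against 11.3 and 9.50 CPM) and Cd63 (45.7 and 30.0 CPM against 22.0 and 16.9 CPM). Both GMP-MoP libraries were also above both cMoP libraries at the Cd37 start site and at Cd9 −11.3 and +64.2 kb, Cd63 −13.6 and −8.7 kb, Cd82 −8.0 kb and Cd53 +1.8 kb. They were below both cMoP libraries at the Cd53 start site and at Cd9 −15.9, +4.6, +23.2, +33.4 and +49.1 kb, Cd81 −9.6, −6.3 and +6.9 kb, and Cd82 +2.3 and +25.3 kb. At all other members the groups overlapped, among them the start sites of Cd151 and Cd82, Cd9 +58.9 kb and Cd53 +4.8 kb. The share of all regions that separate in this way is not given here. The number of such members is therefore not read as a result about the family.

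Further members had these values in the same groups. Cd63 −13.6 kb had 26.9 and 14.7 CPM in GMP-MoP against 14.0 and 10.03 CPM in cMoP. Cd9 +49.1 kb had 27.6 and 14.2 CPM in GMP-MoP against 32.3 and 28.5 CPM in cMoP. Cd9 +21.1 kb had 2.90 and 5.67 CPM in GMP-MoP against 1.61 and 3.17 CPM in cMoP. The first of these 3 was higher in both GMP-MoP libraries, the next lower, and the last overlapped. Cd81 −14.2 kb had 16.0 and 11.3 CPM in GMP-MoP against 19.9 and 12.1 CPM in cMoP. Cd81 +3.4 kb had 10.9 and 12.5 CPM in GMP-MoP against 10.8 and 11.1 CPM in cMoP. Cd81 +6.9 kb had 10.2 and 7.94 CPM in GMP-MoP against 14.5 and 12.7 CPM in cMoP, and of these 3 Cd81 regions it alone did not overlap. Cd82 −12.3 kb had 9.44 and 9.07 CPM in GMP-MoP against 9.14 and 10.03 CPM in cMoP. Cd82 +34.1 kb had 6.54 and 8.50 CPM in GMP-MoP against 12.9 and 6.86 CPM in cMoP. Both overlapped. Cd82 −22.0 kb had 4.36 and 1.70 CPM in GMP-MoP against 5.38 and 4.22 CPM in cMoP, and Cd82 +25.3 kb had 2.90 and 2.27 CPM in GMP-MoP against 8.06 and 3.70 CPM in cMoP, both too low to test. At Cd63 −6.7 kb GMP-MoP had 16.0 and 12.5 CPM and cMoP 9.14 and 12.7 CPM, and at Cd9 +72.2 kb GMP-MoP had 31.2 and 25.5 CPM and cMoP 29.0 and 29.6 CPM.

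Counts summed over all regions of a gene give 1 value per gene, tested over 14752 genes. Cd63 was the only one of the 7 called in 4 comparisons. Its sums were 107.2 and 70.6 CPM in GMP-MoP, 150.2 and 140.8 CPM in proNeu2, 130.0 and 122.6 CPM in proNeu1, and 53.2 and 49.7 CPM in cMoP. They were higher in proNeu2 (1.50, SE 0.15, adjusted p = 8.27e-13) and proNeu1 (1.29, SE 0.15, adjusted p = 5.89e-10) than in cMoP, and lower in GMP-MoP than in proNeu2 (−0.73, adjusted p = 2.23e-05) and proNeu1 (−0.53, adjusted p = 0.00446). Cd37 followed in 3 of these. In proNeu2 against cMoP 2 of the 7 sums were called (Cd63, Cd37) where 54.3% of all genes were. In proNeu1 against cMoP the same 2 were called where 41.1% were. In GMP-MoP against proNeu2 4 were called (Cd63, Cd37, Cd9 and Cd82, all lower) where 47.1% were. The Cd9 sum includes the +33.4 kb region, whose counts led to the choice of the family, so its call is not read as a test. In GMP-MoP against proNeu1 1 was called where 28.7% were. In proNeu2 against proNeu1 0 were called where 0.339% were, with DESeq2 calling 0 as well and 1, Cd37, at an unadjusted p under 0.05. Without GMP-MoP replicate 2, GMP-MoP against proNeu1 gave 0 called sums and GMP-MoP against proNeu2 gave 2, and without proNeu2 replicate 1 the second gave 1; without cMoP replicate 2 or proNeu1 replicate 2, proNeu1 against cMoP gave 1.

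Regions of Cd9 that moved in opposite directions met in its sum. The sum was 256.5 and 216.8 CPM in GMP-MoP, 298.1 and 284.9 CPM in proNeu2, 278.0 and 273.3 CPM in proNeu1, and 269.8 and 247.9 CPM in cMoP, with a log2 fold change of 0.17 in proNeu2 against cMoP (adjusted p = 0.134). This sum includes the +33.4 kb region that led to the choice of the family. Leaving that region out, an alternative chosen after seeing the data, gave 0.25. As the region was open almost only in cMoP, leaving it out raises this difference by construction, and no call is read from it. In GMP-MoP against proNeu2 the Cd9 sum differed by −0.307 with the region and by −0.297 without it. These 2 values are likewise a description. For Cd81, whose start site rose and whose region at −6.3 kb fell, the sum differed by 0.03 (SE 0.14, adjusted p = 0.884) in proNeu2 against cMoP.

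Per kb of region and averaged over the 8 libraries, the start-site level was 63.0 CPM for Cd82, 33.4 for Cd53, 28.9 for Cd63, 26.0 for Cd37, 23.3 for Cd151, 20.7 for Cd81 and 18.1 for Cd9. The order differed by group. In cMoP the levels were 54.7 CPM per kb for Cd82, 39.2 for Cd53, 20.1 for Cd151, 17.7 for Cd37, 11.0 for Cd63, 8.4 for Cd81 and 8.3 for Cd9, whereas in proNeu2 Cd63 came second at 43.5 and Cd53 sixth at 27.4. In cMoP the Cd9 and Cd81 levels could not be separated by the spread of 2 libraries.

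The other tetraspanin genes, a list of 24 of which 22 had a region, gave 60 tested regions. In proNeu2 against cMoP 11 rose and 18 fell, and in proNeu1 against cMoP 10 rose and 9 fell. In GMP-MoP against proNeu2 13 rose and 7 fell, and in GMP-MoP against proNeu1 4 rose and 3 fell. In proNeu2 against proNeu1 0 were called. There 6 of these 60 had an unadjusted edgeR p under 0.05, beside 4448 of all 47506 regions. Called in either direction were 48.3% in proNeu2 against cMoP (52.6% of all regions) and 31.7% in proNeu1 against cMoP (42.4% of all). The shares were 33.3% in GMP-MoP against proNeu2 (39.2% of all) and 11.7% in GMP-MoP against proNeu1 (24.1% of all). Each was near or below the background, and a departure of the list from it was not tested. Its median log2 fold changes were −0.36 in proNeu2 against cMoP, −0.07 in proNeu1 against cMoP, 0.20 in GMP-MoP against proNeu2 and 0.13 in GMP-MoP against proNeu1, against −0.02, 0.02, 0.04 and 0.01 over all regions. Tspan15, a tetraspanin that binds the protease ADAM10, had the lowest p-values: a region in its gene body had 6.54 and 4.54 CPM in GMP-MoP, 32.8 and 32.5 CPM in proNeu2, 24.8 and 26.5 CPM in proNeu1, and 4.30 and 2.11 CPM in cMoP. GMP-MoP lay just above cMoP there, and both proNeu groups were well above them. This Tspan15 region was higher in proNeu2 than in cMoP (3.32, adjusted p = 3.16e-16) and lower in GMP-MoP than in proNeu2 (−2.58, adjusted p = 4.33e-11). A second Tspan15 region had 6.54 and 7.37 CPM in GMP-MoP, 23.7 and 21.9 CPM in proNeu2, 10.6 and 17.6 CPM in proNeu1, and 0.538 and 1.58 CPM in cMoP. Tspan14, another partner of ADAM10, went the other way, with 44.3 and 37.4 CPM in GMP-MoP, 17.6 and 14.6 CPM in proNeu2, 25.5 and 26.5 CPM in proNeu1, and 39.8 and 39.6 CPM in cMoP (proNeu2 against cMoP −1.29, adjusted p = 1.33e-06).

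Other named regions of the list were those of Tspan9 (lower in proNeu1 than in cMoP, −2.20, adjusted p = 1.07e-05), Tspan32 (lower in GMP-MoP than in proNeu2, −1.30, adjusted p = 2.74e-05), Tspan4 (lower in GMP-MoP than in proNeu1, −0.97, adjusted p = 0.00198) and Tspan5 (higher in GMP-MoP than in proNeu1, 2.53, adjusted p = 0.00951). The Tspan5 region had 5.08 and 7.37 CPM in GMP-MoP, 0.708 and 1.36 in proNeu1, 3.65 and 3.98 in proNeu2 and 4.84 and 8.45 in cMoP. In the proNeu1 libraries 3 counts make 2.12 and 2.03 CPM, so this fold change rests on values near 0. Tspan4 is the neighbour of Cd151 on chromosome 7, and its start-site region was the nearest to Cd151 that the linking rule gave to another gene, 3.38 kb away.

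Of 20 genes for tetraspanin partners all had a region, with 75 tested. In proNeu2 against cMoP 13 rose and 20 fell, in proNeu1 against cMoP 12 rose and 17 fell, in GMP-MoP against proNeu2 14 rose and 12 fell, and in GMP-MoP against proNeu1 11 rose and 10 fell. In proNeu2 against proNeu1 0 were called. There 7 of these 75 had an unadjusted edgeR p under 0.05, beside 4448 of all 47506 regions. Called in either direction were 44% in proNeu2 against cMoP (52.6% of all regions), 38.7% in proNeu1 against cMoP (42.4% of all), 34.7% in GMP-MoP against proNeu2 (39.2% of all) and 28% in GMP-MoP against proNeu1 (24.1% of all). The medians of the partner regions were −0.21 in proNeu2 against cMoP, −0.06 in proNeu1 against cMoP, 0.13 in GMP-MoP against proNeu2 and 0.05 in GMP-MoP against proNeu1, beside the medians over all regions given above. A region 16.0 kb upstream of Cxcr4, the chemokine receptor that holds progenitors in the marrow, had 27.6 and 32.3 CPM in GMP-MoP, 1.22 and 1.33 CPM in proNeu2, 2.12 and 2.71 CPM in proNeu1, and 42.5 and 52.8 CPM in cMoP. GMP-MoP and cMoP were both far above the proNeu groups (GMP-MoP against proNeu1 3.60, adjusted p = 7.70e-13, and proNeu2 against cMoP −5.15, adjusted p = 1.13e-26). Regions of Cd36, a scavenger receptor, and Itga4, an integrin chain, had the same order, with 31.2 and 32.7 CPM at Itga4 in GMP-MoP against 5.31 and 6.08 CPM in proNeu2. A region linked to Hbegf, a growth factor whose precursor associates with CD9, had 2.90 and 4.54 CPM in GMP-MoP, 0 and 0.664 CPM in proNeu2, no count in either proNeu1 library, and 17.2 and 17.4 CPM in cMoP.

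**Figure D5:**
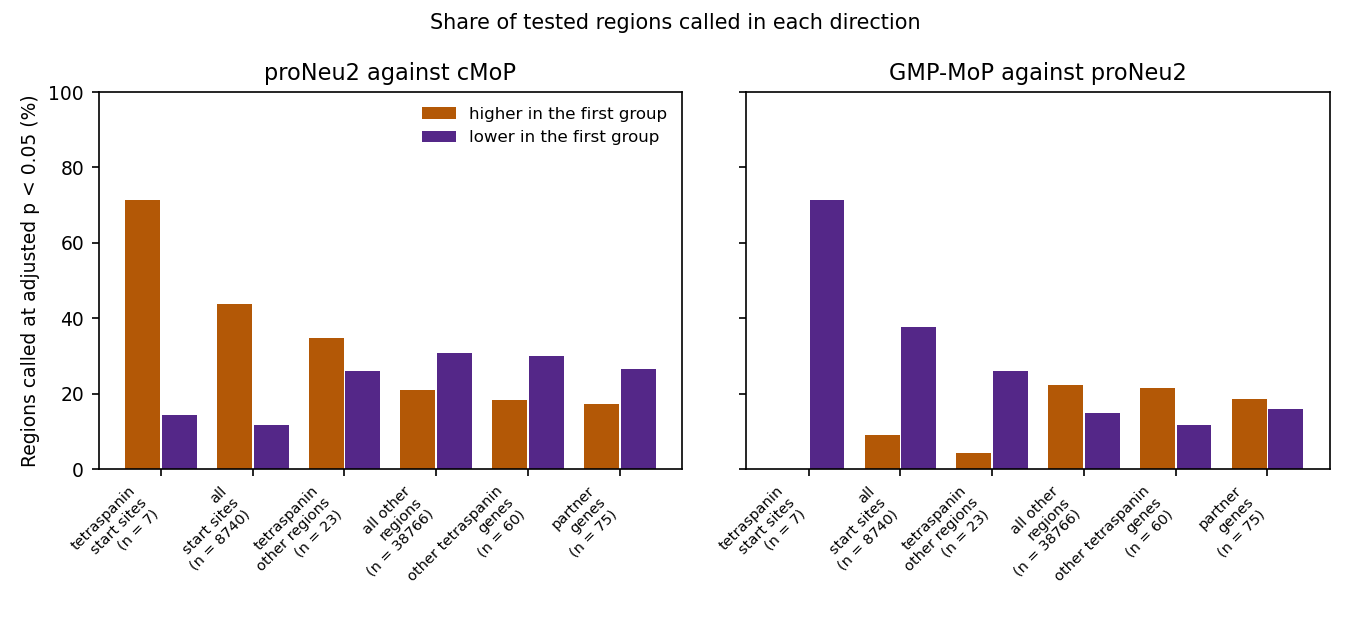
Share of tested regions in percent (vertical axis) that were higher or lower at an edgeR adjusted p under 0.05 in proNeu2 against cMoP (left) and GMP-MoP against proNeu2 (right), for members and all regions split by start site, and for the other tetraspanin and partner genes (horizontal axis). In GMP-MoP against proNeu2 the 7 member start sites have 5 lower and 0 higher, and over all start sites 37.6% are lower and 9.24% higher.

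The regions whose pattern over the 8 libraries was most like that of the +33.4 kb Cd9 region, by Pearson's r of log2 CPM with a prior count of 2 over the 47506 tested regions, were linked to Sun1 (r = 0.982), Tnfaip8 (0.978), Msr1 (0.971), Stard3 (0.971) and 5031439G07Rik (0.969). At Sun1 the values were 18.9 and 22.1 CPM in GMP-MoP, 28.0 and 23.9 CPM in proNeu2, 22.7 and 24.4 CPM in proNeu1, and 45.2 and 42.2 CPM in cMoP, so the likeness is one of shape and the range was narrower. With a prior count of 0.5, 4 of the 5 stayed among the first 5 and all 5 among the first 20. The +33.4 kb region was the one that led to the choice of the family, and it held only 0 to 4 counts in each library outside cMoP. Its pattern is therefore largely cMoP against the rest. The r values are the highest of all tested regions and are a description without a test.

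As to the edge of the linking rule, the farthest member was the Cd9 region at +72.2 kb, 37.3 kb outside the gene, with 24.3 to 31.2 CPM over the 8 libraries. The nearest regions given to other genes lay 29.2 kb from Cd9 (nearer to Vwf; 3.82 ± 0.24 CPM in proNeu2 and 2.13 ± 0.03 CPM in cMoP, SD, n = 2 each) and 0.654 kb from Cd81 (nearer to Tssc4; 121.2 ± 9.99 CPM in proNeu2 and 68.3 ± 15.2 CPM in cMoP).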

How the data were processed

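Chromatin accessibility was measured by ATAC-seq in 8 libraries, 2 for each of GMP-MoP, proNeu2, proNeu1 and cMoP. Each deposited table holds the authors' raw read counts for the same 61196 regions (mm10), 412 to 4202 bases wide. The submitters' processing notes name Bowtie2 2.3.5.1, HOMER 4.11 and edgeR 3.32.1; the sources used here give no region caller, duplicate removal or shift of cut positions. Members and gene lists were chosen with earlier results of these data known.

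Regions were linked to the nearest RefSeq protein-coding gene (GRCm38.p6, the mm10 assembly) within 50 kb; 53906 regions (88.1%) had one, and 0 member regions were tied between genes. A start-site region overlaps a listed gene start, and distances run from the middle of the region to the nearest start. Counts were tested with edgeR 4.0.16 (quasi-likelihood, TMM scaling, filterByExpr with a minimum count of 10, R 4.3.3) in 1 fit of all 8 libraries, with Benjamini-Hochberg adjustment over all tested regions. CPM were computed from the deposited counts with TMM-scaled totals. Intervals and the limit of 3 counts for a count of 0 cover counting error only.

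All 7 genes were described; regions were given in full where they were the most accessible, lay nearest the start or were called with at least a 2-fold change. From the other tetraspanin and partner lists, the 3 regions of lowest adjusted p in each comparison were named. Alternatives were DESeq2 1.42.0, other scalings, loess offsets, no filter, only the groups compared, a replicate block and leaving out each library.

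The 2 libraries of proNeu2 were nearly as close as counting alone allows (chi-square per degree of freedom 1.05 over all regions, p = 1.41e-17, and 1.01, p = 0.182, at 80 counts or more, against 1.16 to 1.38 in the other groups). They were counted as 2 samples, and as 1 in an alternative added after seeing the data.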

Additional observations from a re-analysis of the deposited data

How the results depend on the processing

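The direction of the 48 calls at the regions given in full held in all 768 refits; 681 kept the call and 87 lost it. Counts of called members moved most. DESeq2 called 3 in GMP-MoP against proNeu1, 6 in GMP-MoP against proNeu2, 9 in proNeu1 against cMoP and 11 in proNeu2 against cMoP, where edgeR called 8, 12, 16 and 20; the cause was not tested. Keeping regions within 1 kb of a gene, which leaves fewer regions, gave 5, 7, 10 and 13 in the same order. Adding a 2-fold minimum gave 4 in GMP-MoP against proNeu1, 6 in GMP-MoP against proNeu2 and 12 in proNeu2 against cMoP. Leaving out 1 library gave 2 to 9 in GMP-MoP against proNeu1 (2 without GMP-MoP replicate 2, 5 without either proNeu1 replicate), 7 to 12 in GMP-MoP against proNeu2 (7 without GMP-MoP replicate 2), 12 to 18 in proNeu1 against cMoP, 15 to 21 in proNeu2 against cMoP and 0 in proNeu2 against proNeu1.

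For gene sums, DESeq2 called 0 in GMP-MoP against proNeu1, 1 in GMP-MoP against proNeu2 and 1 in proNeu1 against cMoP. Leaving out 1 library gave 0 to 2 in GMP-MoP against proNeu1, 1 to 4 in GMP-MoP against proNeu2 and 1 to 2 in proNeu1 against cMoP. Scaling by library totals shifted the median of all regions by −0.13 to 0.15 (log2). Taking the proNeu2 libraries as 1 sample moved no count by over 1.5 times.

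The labels do not say whether replicate numbers pair the samples. Correlations of deviations between same-numbered libraries were −0.01 to 0.08. Counting noise makes up much of these deviations, so they cannot exclude a pairing. With the replicate block the members called were again 8, 12, 16, 20 and 0, and the gene sums 1, 4, 2, 2 and 0. The 20 were not the same members: in proNeu2 against cMoP the block ended the call at Cd81 −9.6 kb (0.0513) and added the Cd151 start site (0.0429). With 2 libraries a group and a few counts at the weakest regions, smaller differences were not detectable.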
